A study of Mus musculus with 10 samples.

Results

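The 9 CXC chemokine genes described here are Cxcl1, Cxcl2, Cxcl3, Cxcl5, Cxcl9, Cxcl10, Cxcl12, Cxcl14 and Cxcl16. They were taken by name from the 55357 genes of each count table, and all 9 were found. Poly(A) RNA was sequenced from 2 sets of mouse samples, whose tables were analysed apart. The heart groups were Cd163-/- mice given recombinant interleukin-10 (IL-10, n = 3) and Cd163-/- mice given saline (n = 3). IL-10, an anti-inflammatory cytokine, was injected subcutaneously at 50 µg/kg/day on set days between day 0 and day 27 after surgery. The mice were male, on a C57BL/6 background, and 8 weeks old at surgery. The design text describes transverse aortic constriction, which overloads the left ventricle, but no heart's own label gives its surgery. Both heart groups lack Cd163 per the labels. The macrophage groups were Cd163-/- (n = 2) and wild-type (n = 2) peritoneal macrophages. These cells were collected 3 days after thioglycolate, an irritant that recruits them, kept if adherent and grown in 5% serum, and cells of both genotypes received the synthetic glucocorticoid dexamethasone at 100 nM for 48 h. Their donors' age is not given. The labels do not tie replicates to separate mice or dishes. The p-values below therefore reflect the spread among these libraries alone, and part of that spread may be technical.

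CXC chemokines are small secreted proteins that direct leukocytes through receptors coupled to G proteins. Cxcl1, Cxcl2, Cxcl3 and Cxcl5 attract neutrophils through the receptor gene product of Cxcr2, and their genes are textbook targets of NF-kappaB downstream of Tnf and interleukin-1. Cxcl9 and Cxcl10 are induced by interferons and attract T and NK cells through Cxcr3. Cxcl12 is made constitutively by stromal cells and binds Cxcr4 and the scavenging receptor Ackr3, Cxcl14 is another mostly constitutive ligand, and Cxcl16 is held on the cell surface, shed by the protease Adam10, and binds Cxcr6. Glucocorticoids lower many of the NF-kappaB-driven members in macrophages.

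On GRCm38 (GENCODE M21), 6 of the 9 genes lie on chromosome 5. The neutrophil-directed genes are Cxcl5 at chr5:90759360-90761624, Cxcl3 at chr5:90786103-90789600, Cxcl1 at chr5:90891241-90893115 and Cxcl2 at chr5:90903871-90905938, all on the plus strand. Cxcl9 at chr5:92321347-92328079 and Cxcl10 at chr5:92346638-92348889 lie on the minus strand. Cxcl12 is at chr6:117168535-117181367 on the plus strand, Cxcl14 at chr13:56288643-56296551 and Cxcl16 at chr11:70453983-70459984, both on the minus strand. The 250 bases before the RefSeq gene start (GRCm38.p6) were at hand for 7 of the 9 genes. The windows of Cxcl1, Cxcl2, Cxcl3, Cxcl10 and Cxcl12 are shown 5′ to 3′ on the gene's own strand, because the first 4 belong to the members that differed most between macrophage genotypes and Cxcl12 went the other way. Capitals mark matches to the NF-kappaB consensus and, first in Cxcl10, to the interferon-stimulated response element (ISRE, searched as GAAA, any 2 bases, GAAA). The windows are chr5:90890995-90891244 for Cxcl1, chr5:90903649-90903898 for Cxcl2, chr5:90785851-90786100 for Cxcl3, all on the plus strand, chr5:92348890-92349139 on the minus strand for Cxcl10, and chr6:117168285-117168534 on the plus strand for Cxcl12.
Cxcl1: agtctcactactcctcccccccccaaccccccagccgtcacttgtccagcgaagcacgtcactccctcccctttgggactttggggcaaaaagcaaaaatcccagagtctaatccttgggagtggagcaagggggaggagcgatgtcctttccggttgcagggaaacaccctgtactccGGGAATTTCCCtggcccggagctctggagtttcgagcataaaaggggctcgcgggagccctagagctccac
Cxcl2: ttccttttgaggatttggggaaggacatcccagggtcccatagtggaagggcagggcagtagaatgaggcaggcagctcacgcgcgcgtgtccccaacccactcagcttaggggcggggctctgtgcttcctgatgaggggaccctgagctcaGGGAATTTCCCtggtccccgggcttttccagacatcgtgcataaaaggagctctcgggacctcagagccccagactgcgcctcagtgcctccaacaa
Cxcl3: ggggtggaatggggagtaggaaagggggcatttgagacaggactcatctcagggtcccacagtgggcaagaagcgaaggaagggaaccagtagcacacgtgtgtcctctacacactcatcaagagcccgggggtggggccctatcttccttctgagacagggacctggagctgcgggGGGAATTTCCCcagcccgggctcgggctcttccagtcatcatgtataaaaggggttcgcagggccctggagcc
Cxcl10: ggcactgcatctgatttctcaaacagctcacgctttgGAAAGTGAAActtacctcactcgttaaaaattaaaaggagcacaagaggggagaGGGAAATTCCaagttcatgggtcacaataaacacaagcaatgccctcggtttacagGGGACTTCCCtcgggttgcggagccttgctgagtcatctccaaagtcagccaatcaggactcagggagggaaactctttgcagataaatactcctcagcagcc
Cxcl12: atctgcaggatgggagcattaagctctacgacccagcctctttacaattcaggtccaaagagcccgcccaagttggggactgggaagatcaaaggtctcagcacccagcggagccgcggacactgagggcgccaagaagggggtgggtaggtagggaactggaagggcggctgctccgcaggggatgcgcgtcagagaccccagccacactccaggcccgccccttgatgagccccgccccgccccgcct

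Cxcl1, Cxcl2 and Cxcl3 held the same 11 bases, GGGAATTTCCC, which match the NF-kappaB consensus on both strands with the 2 matches overlapping. Counted back from the RefSeq gene start (the base before it is -1), the run began at -71 in Cxcl1, -97 in Cxcl2 and -73 in Cxcl3. For these genes the RefSeq start differs from the GENCODE start given above, and the Cxcl1 and Cxcl2 windows reach into the GENCODE gene. The positions therefore depend on the start used. The run shared by Cxcl1 and Cxcl2 was 14 bases long. Cxcl10 had 2 separate NF-kappaB matches, from -159 to -150 and from -103 to -94, and an ISRE from -213 to -204. The NF-kappaB consensus was thus in 4 of the 7 windows, against 3.9% of 32851 promoter windows of the same length, with both strands searched. The ISRE was in 2 of the 7 (Cxcl10 and Cxcl14), against 2.98%. Cxcl12 held neither, nor the other motifs searched, which were the interferon-gamma motif GAS (TTCNNNGAA, in 1 of 7 against 7.02%), AP-1 (TGANTCA, 1 of 7 against 6.75%) and the TATA box (TATAAA, 2 of 7 against 12.4%). A match describes the letters only and is not a measured binding site.

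Total counts were 14070367 to 14823570 in IL-10 hearts and 13483335 to 14939465 in saline hearts, and 17213957 to 18619288 in Cd163-/- macrophages and 16729749 to 17924057 in wild-type macrophages. Levels are in CPM, counts scaled to a common library size after TMM normalisation. A floor of 3 counts in a library is 0.192 to 0.220 CPM in hearts and 0.149 to 0.190 CPM in macrophages. Cd163, the targeted gene, had 9 and 14 counts in Cd163-/- macrophages, against 352 and 205 in wild-type macrophages. The hearts, all labelled Cd163-/-, held 34 to 43 Cd163 counts after IL-10 and 45 to 57 after saline, and the deleted part of the gene is not given. The heart libraries were rich in cardiomyocyte transcripts such as Myh6 and the macrophage libraries in Lyz2. The macrophage libraries also held fibroblast and mesothelial transcripts, given below beside Cxcl12 and Cxcl14. They held some cardiomyocyte transcripts too, with Myh6 at 163 and 245 counts in Cd163-/- and 195 and 251 in wild-type libraries. The source of these reads, and whether it adds to the low chemokine counts in Cd163-/- cells, was not tested.

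The first comparison asked how IL-10 altered these genes in Cd163-/- hearts. Cxcl10 fell about 6-fold, Cxcl5, Cxcl1 and Cxcl14 rose, and Cxcl12, Cxcl16 and Cxcl9 did not pass the test. Cxcl2 and Cxcl3 had too few counts to be tested. Of the 7 members tested, 3 rose and 1 fell at a Benjamini-Hochberg adjusted p under 0.05 (edgeR quasi-likelihood test), where 6.86% of all 13718 tested genes rose and 6.7% fell, 13.6% in all. An unadjusted p under 0.05 was reached by 5 of the 7 members and by 28.3% of all tested genes. The members' median log2 fold change was -0.10, and that of all tested genes was -0.01.

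**Figure D1:**
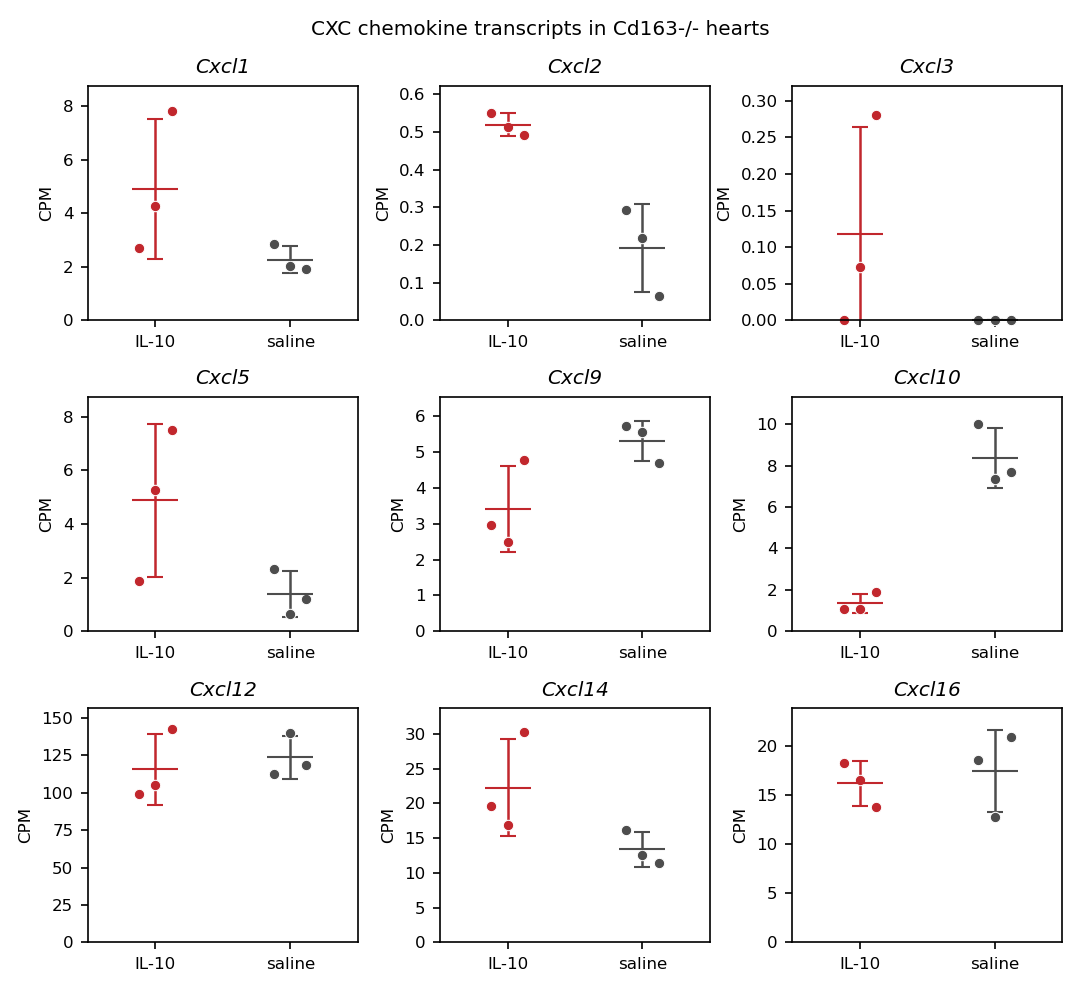
CPM of each CXC chemokine gene in every Cd163-/- heart, IL-10 left and saline right (points are libraries, horizontal lines the mean, bars the SD, n = 3 each; the lower bar of Cxcl3 is cut at 0). The groups are apart for Cxcl2, Cxcl10 and Cxcl14 and overlap for the other 6 genes, and IL-10 replicate 3, the rightmost red point, is the highest IL-10 heart for Cxcl1, Cxcl3, Cxcl5, Cxcl9, Cxcl10, Cxcl12 and Cxcl14.

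The interferon-induced members came out unequally. Cxcl10 had 1.10, 1.10 and 1.90 CPM in the IL-10 hearts, against 10.0, 7.35 and 7.68 CPM in the saline hearts. Every IL-10 heart was below every saline heart. Of the 7 tested members the groups were apart for 2, Cxcl10 and Cxcl14, where they were apart for 31.6% of all tested genes. The Cxcl10 mean was 1.37 ± 0.458 CPM in IL-10 hearts against 8.35 ± 1.45 CPM in saline hearts (SD, n = 3 each), 6.07-fold lower (log2 -2.60, SE 0.27; edgeR quasi-likelihood, adjusted p = 2.47e-05). The absolute log2 change was at the percentile 99.7 of all tested genes, and the call stood in each of 15 alternative fits, at log2 -2.90 to -2.45. Cxcl10 shares 133 exon bases with Art3, whose reads there cannot be told apart. Cxcl9 had 2.96, 2.49 and 4.77 CPM in the IL-10 hearts, against 5.70, 5.53 and 4.67 CPM in the saline hearts. IL-10 replicate 3 lay just above saline replicate 3, so the groups overlapped, and the log2 difference of -0.63 (SE 0.26) did not pass (edgeR quasi-likelihood, adjusted p = 0.121). Without IL-10 replicate 3 it did (log2 -0.94, adjusted p = 0.0291). No test compared Cxcl9 with Cxcl10.

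Cxcr3, the receptor for both, was near the floor, at 3, 0 and 5 counts in IL-10 hearts and 3, 3 and 3 in saline hearts, and was not tested. Summed levels of 11 T and NK cell markers were 2.27 to 3.86 CPM in IL-10 hearts and 3.06 to 3.22 CPM in saline hearts. Of the 2 of these markers with enough counts, 0 were called by edgeR, DESeq2 or limma-voom, and 0 had an unadjusted p under 0.05. In the list of 15 interferon signalling genes, 3 of 13 tested fell and 0 rose. Irf7, an interferon-induced transcription factor, had 13.0, 9.02 and 14.5 CPM in IL-10 hearts, against 31.0, 20.7 and 24.4 CPM in saline hearts (log2 -1.06, SE 0.18; edgeR quasi-likelihood, adjusted p = 0.00109). Stat2, which carries the interferon signal to the nucleus, fell by 0.66 on the log2 scale (edgeR quasi-likelihood, adjusted p = 0.00709), a call lost without IL-10 replicate 2 (adjusted p = 0.0512). Irf1, another inducer of these chemokines, was at 13.1 ± 0.770 CPM in IL-10 hearts and 14.4 ± 1.14 CPM in saline hearts (SD, n = 3 each; log2 -0.14, adjusted p = 0.554). The interferon genes Ifng and Ifnb1 were at 0 counts in all 6 hearts. Whether these genes bear on the Cxcl10 difference was not tested.

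Of the neutrophil-directed members Cxcl5 and Cxcl1 rose, both at low levels, and Cxcl2 and Cxcl3 were not tested. Cxcl5 had 1.86, 5.28 and 7.51 CPM in the IL-10 hearts, against 2.34, 0.655 and 1.22 CPM in the saline hearts. IL-10 replicates 2 and 3 were above all saline hearts, while IL-10 replicate 1 was below saline replicate 1. The log2 difference was 1.80 (SE 0.46; edgeR quasi-likelihood, adjusted p = 0.0162), 3.47-fold. It did not pass in DESeq2 (adjusted p = 0.0845), nor without IL-10 replicate 2 (0.0703), IL-10 replicate 3 (log2 1.35, 0.0786) or saline replicate 3 (0.0647). Cxcl1 had 2.69, 4.25 and 7.79 CPM in the IL-10 hearts, against 2.85, 2.04 and 1.92 CPM in the saline hearts. IL-10 replicate 1 was again below saline replicate 1. The log2 difference was 1.12 (SE 0.35; edgeR quasi-likelihood, adjusted p = 0.0413), 2.17-fold, and was 0.62 (adjusted p = 0.234) without IL-10 replicate 3. That call was also lost without IL-10 replicate 2 or any 1 saline heart (adjusted p = 0.0530 to 0.133), in limma-voom (0.0866), with upper-quartile scaling (0.0510) and with scaling by library size alone (0.0642).

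Cxcl2 had 8, 7 and 7 counts in the IL-10 hearts, against 4, 3 and 1 in the saline hearts. These groups did not overlap, but most of the counts are little above the floor, and without the count filter the gene was not called (edgeR quasi-likelihood, adjusted p = 0.403). Cxcl3 had 0, 1 and 4 counts in IL-10 hearts and 0 in every saline heart, and no difference was detectable at this depth. Cxcr2, the receptor for these ligands on neutrophils, had 4, 20 and 8 counts in IL-10 hearts, against 17, 9 and 4 in saline hearts, and the groups overlapped. Cxcr1 had 0 counts in every heart.

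The summed level of 11 neutrophil markers was 40.1 to 104 CPM in IL-10 hearts and 36.8 to 41.9 CPM in saline hearts, and 1 of the 4 tested markers rose. That gene was Lcn2, lipocalin-2, which held most of the sum in every heart. It had 33.9, 92.8 and 72.5 CPM in IL-10 hearts and 31.7, 32.1 and 29.5 CPM in saline hearts (log2 1.09, SE 0.24; edgeR quasi-likelihood, adjusted p = 0.00598). DESeq2 called 0 of these markers. Lcn2 was highest in IL-10 replicate 2, where Cxcl1 and Cxcl5 were highest in IL-10 replicate 3. The more specific markers S100a8 and S100a9 were at 15 to 20 and 30 to 49 counts in IL-10 hearts and 9 to 16 and 22 to 37 in saline hearts, and Ly6g had at most 1 count in any heart. The part of neutrophils in the Cxcl1 and Cxcl5 differences was not tested.

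The list of 12 inducers of neutrophil chemokines had 0 of 10 tested genes called by edgeR, DESeq2 or limma-voom, and 2 with an unadjusted p under 0.05 (edgeR). Il6 had 1.17, 2.13 and 5.90 CPM in IL-10 hearts, against 1.75, 0.510 and 1.60 CPM in saline hearts (log2 1.24, SE 0.52; edgeR quasi-likelihood, adjusted p = 0.126). Like Cxcl1 and Cxcl5, it was highest in IL-10 replicate 3. Nfkbia, the NF-kappaB inhibitor that NF-kappaB itself induces, had a log2 difference of 0.30 (adjusted p = 0.132), and the cytokines Il1b and Tnf had -0.03 and 0.02. Of 6 genes that speed the decay of chemokine mRNA, 0 were called by any of the 3 tools and 1, Zfp36l1 (log2 0.36, adjusted p = 0.0700), had an unadjusted p under 0.05. Of 6 tested proteases that cut or shed chemokines, 0 were called by any of the 3 tools and 0 had an unadjusted p under 0.05.

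Of Cxcl12, Cxcl14 and Cxcl16, only Cxcl14 rose. It had 19.6, 16.9 and 30.3 CPM in the IL-10 hearts, against 16.2, 12.6 and 11.4 CPM in the saline hearts. Every IL-10 heart was above every saline heart, with the 2 nearest libraries close together. The log2 difference was 0.74 (SE 0.19; edgeR quasi-likelihood, adjusted p = 0.0190), 1.67-fold, and it did not pass without IL-10 replicate 3 (log2 0.47, adjusted p = 0.0804) or saline replicate 3 (0.64, 0.0847). Cxcl12 had 98.9, 105 and 142 CPM in IL-10 hearts, against 112, 139.9 and 118 CPM in saline hearts, with overlapping groups and a log2 difference of -0.10 (SE 0.14; edgeR quasi-likelihood, adjusted p = 0.698). Cxcl16 had 18.3, 16.6 and 13.8 CPM in IL-10 hearts, against 18.6, 12.8 and 21.0 CPM in saline hearts (log2 -0.11, SE 0.17, adjusted p = 0.727). Its exons overlap those of Zmynd15 on the opposite strand by 552 bases, and the kit does not mark strand, so reads there cannot be told apart. Fibroblast markers summed to 2715 to 3233 CPM in IL-10 hearts and 2379 to 2545 CPM in saline hearts, with 3 of 8 higher (among them Gsn and Dcn) and 2 lower (Col1a1 among them). Their part in the Cxcl14 difference was not tested, and in bulk RNA fewer cells of a type and less RNA per cell cannot be told apart.

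Of the receptors of Cxcl12 and Cxcl16, Ackr3 rose, Cxcr4 did not pass and the Cxcr6 call depended on the fit. Ackr3, which removes Cxcl12 without G-protein signalling, had 184, 181 and 167 CPM in IL-10 hearts, against 89.2, 103.6 and 79.9 CPM in saline hearts. The groups were far apart, at 1.95-fold (log2 0.97, SE 0.12; edgeR quasi-likelihood, adjusted p = 9.00e-05), and the call stood in all 15 alternative fits. Cxcr4, the signalling receptor, had 5.52, 5.21 and 3.72 CPM in IL-10 hearts, against 5.70, 5.02 and 8.25 CPM in saline hearts (log2 -0.40, SE 0.24, adjusted p = 0.290). Cxcr6 had 0.896, 2.71 and 2.18 CPM in IL-10 hearts, against 15.1, 1.97 and 9.73 CPM in saline hearts. Saline replicate 2 lay within the IL-10 hearts, and the log2 difference of -2.21 (SE 0.51; edgeR quasi-likelihood, adjusted p = 0.00903) was not called in DESeq2 (0.0714), limma-voom (0.0825) or without saline replicate 1 (log2 -1.62, 0.0568). Cxcr6 lies in an intron of Fyco1, on the opposite strand. Ackr1 had 2, 5 and 8 counts in IL-10 hearts, against 11 in each saline heart, and did not pass (log2 -1.10, edgeR quasi-likelihood, adjusted p = 0.191). An exon of Ackr1 overlaps one of Cadm3, on the same strand, by 284 bases. Cxcr5 had 0, 3 and 1 counts in IL-10 hearts, against 0, 0 and 1 in saline hearts, and was not tested.

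Of the other CXC ligands, Pf4 (platelet factor 4, also made by macrophages) rose slightly, at 25.4, 26.3 and 26.7 CPM in IL-10 hearts against 18.6, 14.9 and 21.4 CPM in saline hearts (log2 0.51, SE 0.14; edgeR quasi-likelihood, adjusted p = 0.0209). The call was lost without IL-10 replicate 2 or saline replicate 1 or 2 (adjusted p = 0.0607 to 0.0761) and with scaling by library size alone (0.0654). Ppbp, another platelet ligand, had 0.827 to 1.47 CPM in IL-10 hearts and 1.89 to 2.24 CPM in saline hearts, and did not pass (adjusted p = 0.108). Cxcl13, which attracts B cells, had 1, 23 and 10 counts in IL-10 hearts, against 1, 0 and 1 in saline hearts, and was too low to test. B cell markers summed to 1.40 to 3.17 CPM in IL-10 hearts and 0.731 to 1.41 CPM in saline hearts. Cxcl11, annotated in GENCODE M21 as a polymorphic pseudogene, had 0 to 1 counts in IL-10 hearts and 0 to 4 in saline hearts. Cxcl17 had 3 counts in a single saline heart, and Cxcl15 had 0 in every heart.

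The second comparison asked how loss of Cd163 altered the same genes in dexamethasone-treated macrophages. Cxcl1, Cxcl2, Cxcl5 and Cxcl10 fell in Cd163-/- cells, with fitted differences of 153-fold for Cxcl1 and 320-fold for Cxcl5 at the ends of their range. Cxcl3 fell to 1 count over both Cd163-/- libraries, and Cxcl16 was 1.77-fold lower. Cxcl12 and Cxcl14 were 3.27-fold and 3.19-fold higher. Of the 9 members, all tested, 6 fell, 2 rose and 1, Cxcl9, did not pass, where 13.3% of all 13861 tested genes fell and 13.1% rose, 26.4% in all (edgeR quasi-likelihood, adjusted p under 0.05). All 9 had an unadjusted p under 0.05, as had 41.2% of all tested genes. The members' median log2 fold change was -7.26, and that of all tested genes was 0.01. With Cxcl3, which had 1 count in the Cd163-/- cells, set at the near end of its counting interval, the median was -7.19. The groups did not overlap for any of the 9, as for 69.4% of all tested genes with 2 libraries a group.

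**Figure D2:**
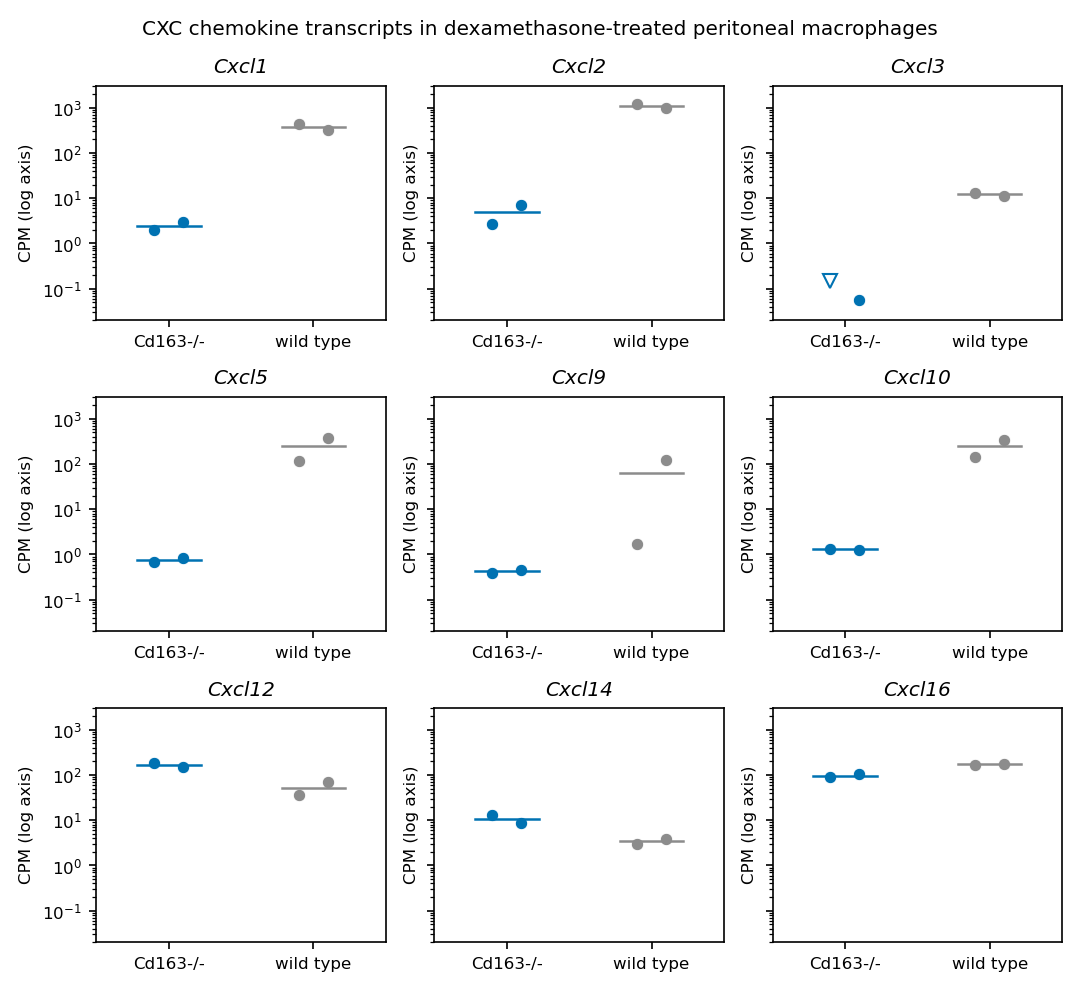
CPM of each CXC chemokine gene in every dexamethasone-treated macrophage library, Cd163-/- left and wild type right, on a log axis (points are libraries, horizontal lines the mean, n = 2 each). An open triangle stands for 0 counts and is drawn at the level of 3 counts, and no mean is drawn for that group. The 6 genes of the upper rows lie far lower in Cd163-/- cells, Cxcl9 with 1 wild-type library near the Cd163-/- level, while Cxcl12 and Cxcl14 lie higher.

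All 4 neutrophil-directed members fell in Cd163-/- cells. Cxcl3 was under the floor of 3 counts there, while the other 3 were low but above it. Cxcl2 had 2.69 and 6.99 CPM in Cd163-/- macrophages, against 1182 and 981 CPM in wild-type macrophages, 225-fold lower (log2 -7.81, SE 0.49; edgeR quasi-likelihood, adjusted p = 7.73e-04). Cxcl1 had 1.99 and 2.94 CPM in Cd163-/- macrophages, against 431 and 323 CPM in wild-type macrophages, 153-fold lower (log2 -7.26, SE 0.28, adjusted p = 3.99e-04). For both genes the libraries of a group lay within a few-fold of each other and the groups were far apart. Cxcl5 had 0.697 and 0.832 CPM in Cd163-/- macrophages, against 115 and 377 CPM in wild-type macrophages (log2 -8.32, SE 0.76, adjusted p = 0.00189). Cxcl3 had 0 and 1 count in Cd163-/- macrophages, against 224 and 179 counts in wild-type macrophages, a ratio of 471-fold lower with a 95% counting interval of 84.1 to 18654 (edgeR quasi-likelihood, adjusted p = 6.33e-04). Intervals and floors cover counting error only. All 4 calls stood in each of 13 alternative fits. The log2 difference of Cxcl2 was -8.66 without Cd163-/- replicate 2, and that of Cxcl5 was -8.94 without wild-type replicate 1 and -7.23 without wild-type replicate 2. Of the 50-base words of the Cxcl2 and Cxcl3 transcripts, 5.84% and 4.29% also occur in another gene, so a small part of these reads could be assigned to either, while Cxcl1 shares none.

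Their receptor Cxcr2 had 0 and 1 count in Cd163-/- macrophages and 0 in both wild-type libraries, and Cxcr1 had at most 3 counts. Neutrophil markers summed to 109 to 164 CPM in Cd163-/- macrophages and 236 to 786 CPM in wild-type macrophages, with 4 of 5 tested markers lower and 1, Mmp8, higher. The lower ones were S100a8, Camp, Csf3r and Lcn2, of which the last 2 hold most of the wild-type sum. The defining markers Retnlg, S100a9, Ly6g, Ngp and Ltf were at 0 or 1 count in every library. The part of neutrophils in these differences was not tested.

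Of 11 tested genes on the list of inducers of these chemokines, 9 fell and 0 rose in Cd163-/- cells (edgeR quasi-likelihood), where 13.3% of all tested genes fell. The list also holds an inhibitor, Nfkbia, which restrains NF-kappaB and is among the 9. The calls of Rela and Il17ra, an NF-kappaB subunit and a receptor subunit for interleukin-17, were lost without Cd163-/- replicate 1 or 2 (adjusted p = 0.0515 to 0.110). Il1b had 0.498 and 0.222 CPM in Cd163-/- macrophages, against 391 and 856 CPM in wild-type macrophages (log2 -10.70, SE 0.62, adjusted p = 6.00e-04). It was -11.40 without Cd163-/- replicate 1 and -10.04 without wild-type replicate 2. Tnf had 8.76 and 12.9 CPM in Cd163-/- macrophages, against 2450 and 1872 CPM in wild-type macrophages (log2 -7.64, SE 0.33, adjusted p = 4.38e-04). Nfkbiz, an NF-kappaB cofactor, fell by 4.89 and Nfkbia by 3.37 on the log2 scale. The 2 genes that did not pass were those of the receptors Il1r1 and Tnfrsf1a (log2 0.35 and 0.07). The 4 chemokine genes whose windows hold the NF-kappaB consensus, Cxcl1, Cxcl2, Cxcl3 and Cxcl10, were all among the members that fell. Of these, Cxcl1, Cxcl2 and Cxcl3 share the same run of bases, so their matches do not count as separate cases. Cxcl5 and Cxcl16, which had no window, also fell. Only full matches were searched for, and near matches, such as gggatttcct in the Cxcl9 window, were not counted. The Cxcl9 window holds no full match, and the fitted log2 difference of Cxcl9 was -7.19, not called. Cxcl12 and Cxcl14, also without a full NF-kappaB match, rose. In hearts Cxcl1 rose and Cxcl10 fell. NF-kappaB binding was not measured, and the part of these matches in the chemokine differences was not tested.

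Of the 6 mRNA decay genes, 2 fell and 2 rose. Zc3h12a, the RNase Regnase-1, had 20.3 and 25.6 CPM in Cd163-/- macrophages, against 143 and 197 CPM in wild-type macrophages (log2 -2.89, SE 0.21; edgeR quasi-likelihood, adjusted p = 0.00109). Zfp36, tristetraprolin, which binds AU-rich chemokine messages, fell by 0.70 on the log2 scale, while its relatives Zfp36l1 and Zfp36l2 rose by 1.29 and 0.72. Without Cd163-/- replicate 1 or 2 the Zfp36 and Zfp36l2 calls were lost (adjusted p = 0.0944 to 0.119). The glucocorticoid-induced genes Tsc22d3 and Fkbp5, chosen after their values were seen, rose by 1.28 and 1.46 on the log2 scale, at 5009 to 5260 and 5553 to 7060 counts in Cd163-/- macrophages and 1734 to 1890 and 1610 to 2330 counts in wild-type macrophages. Both macrophage groups had received dexamethasone. In IL-10 hearts, where Cxcl1 and Cxcl5 rose, Tsc22d3 also rose (log2 1.25, edgeR quasi-likelihood, adjusted p = 1.05e-04). Fkbp5 did not pass there (log2 0.53, adjusted p = 0.055). The part of glucocorticoid response in the chemokine differences was not tested.

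The interferon-induced members were also low in Cd163-/- cells, but the wild-type libraries disagreed for Cxcl9. Cxcl10 had 1.34 and 1.28 CPM in Cd163-/- macrophages, against 144 and 341 CPM in wild-type macrophages, 184-fold lower (log2 -7.52, SE 0.54; edgeR quasi-likelihood, adjusted p = 0.00103), and log2 -6.77 without wild-type replicate 2. Cxcl9 had 0.398 and 0.444 CPM in Cd163-/- macrophages, against 1.66 and 123 CPM in wild-type macrophages. Wild-type replicate 2 held nearly all the Cxcl9 reads, and the log2 difference of -7.19 (SE 2.08) did not pass (edgeR quasi-likelihood, adjusted p = 0.0509). It was -1.97 without wild-type replicate 2 (adjusted p = 0.0501) and -8.17 without wild-type replicate 1 (2.09e-07), and it was called in DESeq2 (0.00307) but not in limma-voom (log2 -4.94, 0.420). Cxcl11 is annotated in GENCODE M21 as a polymorphic pseudogene, so its reads need not mean a working Cxcr3 ligand. It had 0 counts in both Cd163-/- libraries, against 5 and 16 in wild-type macrophages, and was not tested. Its exons share 1582 bases with the gene model Gm2673. Ifng had 0 counts in both Cd163-/- libraries, against 1 and 56 in wild-type macrophages, and the NK cell gene Ncr1 had 0 and 5 counts in Cd163-/- libraries and 0 and 8 in wild-type libraries. The library with the Cxcl9 reads was thus the one with the Ifng reads, and their part in the Cxcl9 level was not tested.

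In the interferon signalling list 7 of 13 tested genes fell and 0 rose. Irf1 had 28.9 and 31.8 CPM in Cd163-/- macrophages, against 179 and 291 CPM in wild-type macrophages (log2 -2.95, SE 0.25; edgeR quasi-likelihood, adjusted p = 0.00157). Jak2, the kinase of the interferon-gamma receptor, fell by 2.15 (adjusted p = 0.00463) and Stat2 by 1.29 (adjusted p = 0.0247) on the log2 scale. The receptor and kinase genes Ifngr2, Ifnar1, Ifnar2 and Tyk2 fell by 0.64, 0.62, 0.79 and 0.74. Without Cd163-/- replicate 1 all of the 7 calls but that of Irf1 were lost, and without Cd163-/- replicate 2 all but those of Irf1 and Jak2. The Tyk2 call was also lost with upper-quartile scaling (adjusted p = 0.0523) and with scaling by library size alone (0.0610), and with the replicate block (0.0557). Irf7 did not pass (log2 -1.64, adjusted p = 0.127), and wild-type replicate 2 was its higher wild-type library.

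Cxcl12, Cxcl14 and Cxcl16 did not all move the same way. Cxcl12 had 186 and 153 CPM in Cd163-/- macrophages, against 35.4 and 68.4 CPM in wild-type macrophages, 3.27-fold higher (log2 1.71, SE 0.31; edgeR quasi-likelihood, adjusted p = 0.0136). Cxcl14 had 12.8 and 8.77 CPM in Cd163-/- macrophages, against 2.97 and 3.81 CPM in wild-type macrophages, 3.19-fold higher (log2 1.67, SE 0.28, adjusted p = 0.0103). Cxcl16 had 88.4 and 104.6 CPM in Cd163-/- macrophages, against 164.5 and 178 CPM in wild-type macrophages (log2 -0.83, SE 0.14, adjusted p = 0.0101). All 3 calls were lost without Cd163-/- replicate 1 (adjusted p = 0.0976 for Cxcl12, 0.0759 for Cxcl14 and 0.0967 for Cxcl16), where the remaining Cd163-/- library was assumed to vary like the wild-type ones, and that of Cxcl12 also without Cd163-/- replicate 2 (0.0568). Their directions held in each of 13 alternative fits.

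Most tested fibroblast and mesothelial markers were higher in Cd163-/- libraries, as were Cxcl12 and Cxcl14. Fibroblast markers summed to 3201 to 3695 CPM in Cd163-/- macrophages and 1573 to 2272 CPM in wild-type macrophages, with 4 of 6 tested higher and Pdgfra lower. Dcn was not called (log2 0.25; edgeR quasi-likelihood, adjusted p = 0.347). Col1a1, type I collagen, had 1057 and 947 CPM in Cd163-/- libraries, against 226 and 482 CPM in wild-type libraries. Mesothelial markers summed to 363 to 485 CPM in Cd163-/- macrophages and 116 to 180.1 CPM in wild-type macrophages, with 6 of 8 higher and 0 lower. Upk3b, a marker of the mesothelium that lines the peritoneum, had 139 and 111 CPM in Cd163-/- libraries, against 64.2 and 42.2 CPM in wild-type libraries. Between the wild-type libraries Col1a1 had the same order as Cxcl12 and Cxcl14, and Upk3b the reverse. Macrophage markers summed to 21589 to 22557 CPM in Cd163-/- cells and 24815 to 29270 CPM in wild-type cells, with Cd14 and Adgre1 lower and C1qa higher of 8. The part of stromal cells in the Cxcl12 and Cxcl14 differences was not tested.

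**Figure D3:**
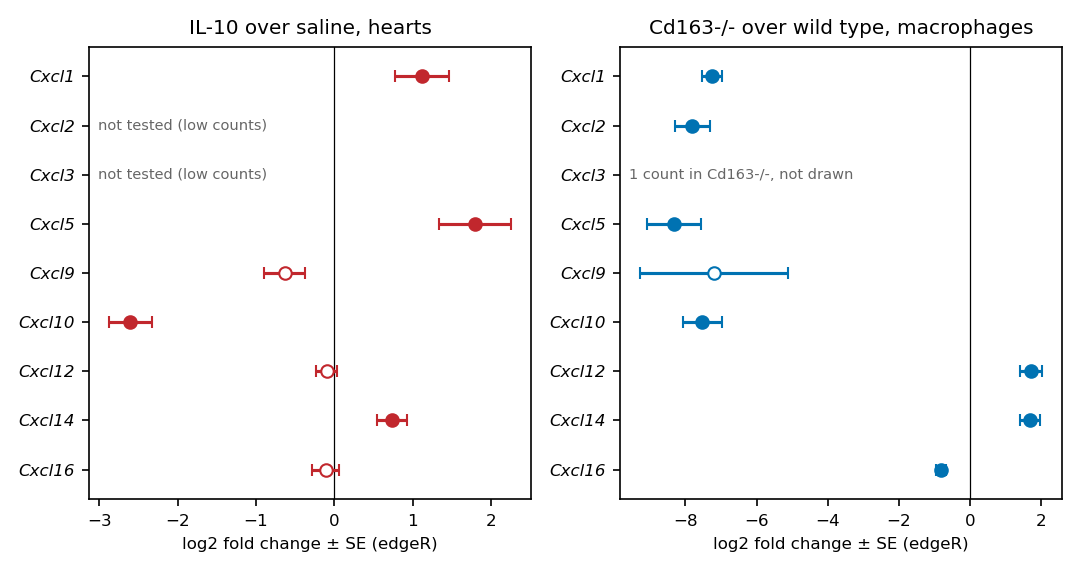
Log2 fold changes of the CXC chemokine genes with SE (edgeR), IL-10 over saline hearts left and Cd163-/- over wild-type macrophages right, on different scales. Filled points passed an adjusted p under 0.05, open points did not, and Cxcl10 is at -2.60 in hearts and -7.52 in macrophages while Cxcl1 and Cxcl5 lie right of 0 in hearts and left of 0 in macrophages.

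Cxcr4 and Cxcr3 rose in Cd163-/- macrophages. Cxcr4 had 106 and 157 CPM in Cd163-/- macrophages, against 14.1 and 5.14 CPM in wild-type macrophages, 13.6-fold higher (log2 3.76, SE 0.47; edgeR quasi-likelihood, adjusted p = 0.00451). Cxcr3 had 68 and 86 counts in Cd163-/- macrophages, against 2 and 1 in wild-type macrophages, a ratio of 43.9 with a 95% counting interval of 14.7 to 215 (adjusted p = 0.00200). Both calls stood in each of 13 alternative fits, and the log2 difference of Cxcr4 was 4.67 without wild-type replicate 1. Other markers of T and NK cells had low counts. Cd3d, Cd3e, Cd3g and Cd8a were at 0 to 2 counts in every library. Trac was at 9 and 9 in Cd163-/- libraries and 2 and 3 in wild-type libraries. Cd4 was at 18 and 5 in Cd163-/- libraries and 5 and 2 in wild-type libraries. Klrb1c was at 6 and 10 against 4 and 1, and Gzma at 0 and 35 against 3 and 22, in the same order of groups. Ackr3 had 5.92 and 1.11 CPM in Cd163-/- macrophages, against 1.01 and 0.825 CPM in wild-type macrophages, and did not pass (log2 1.94, adjusted p = 0.121). Its difference rested on Cd163-/- replicate 1, being log2 0.27 without that library (adjusted p = 0.778) and 2.67 without Cd163-/- replicate 2 (0.0271), and it was called without the count filter. Cxcr6 had 8 and 10 counts in Cd163-/- macrophages and 3 and 6 in wild-type macrophages, and was not tested. Ackr1 had 8 and 7 counts against 3 and 2, in the same order of groups, and was not tested either.

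**Figure D4:**
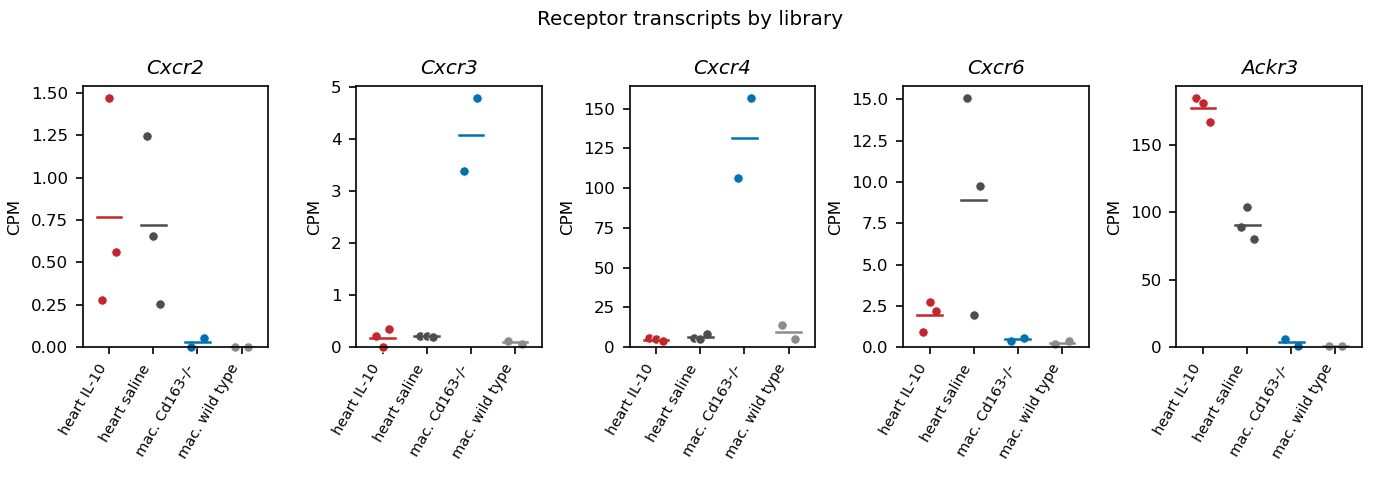
CPM of 5 chemokine receptor genes in every library, IL-10 and saline hearts (n = 3 each) then Cd163-/- and wild-type macrophages (n = 2 each), with points for libraries and lines for means. Ackr3 is higher in IL-10 than in saline hearts, Cxcr3 and Cxcr4 are higher in Cd163-/- than in wild-type macrophages, and the saline hearts differ widely in Cxcr6. Hearts and macrophages were scaled apart.

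Of 7 tested chemokine-cleaving proteases, 2 fell and 3 rose in Cd163-/- macrophages. Adam10, the sheddase of Cxcl16, rose by 0.67 on the log2 scale (SE 0.12; edgeR quasi-likelihood, adjusted p = 0.0143), and Adam17, which sheds Tnf and others, fell by 1.81 (SE 0.16, adjusted p = 0.00158). Mmp9 fell by 3.11 (by 3.87 without Cd163-/- replicate 2) and Mmp8 rose by 1.32, and Dpp4, which inactivates Cxcl10 and Cxcl12 by cutting their amino termini, had 4.18 and 2.61 CPM in Cd163-/- cells against 1.54 and 0.825 CPM in wild-type cells (adjusted p = 0.0477). Without either Cd163-/- library the Adam10 and Dpp4 calls were lost (adjusted p = 0.0806 to 0.257), and that of Dpp4 also without wild-type replicate 2 (0.131) and in limma-voom (0.0544). Among the other ligands Cxcl13 had 22.0 and 30.7 CPM in Cd163-/- macrophages, against 377 and 805 CPM in wild-type macrophages, 22.4-fold lower (log2 -4.49, SE 0.42; edgeR quasi-likelihood, adjusted p = 0.00199), and log2 -3.84 without wild-type replicate 2. Its receptor Cxcr5 had 1 and 0 counts in Cd163-/- libraries and 4 and 2 in wild-type libraries. Pf4 rose, at 101 and 72.9 CPM in Cd163-/- macrophages against 55.7 and 36.1 CPM in wild-type macrophages (log2 0.92, adjusted p = 0.0425), a call lost without either Cd163-/- library or wild-type replicate 2 (adjusted p = 0.0650 to 0.229). Ppbp, Cxcl15 and Cxcl17 had 0 or 1 count in every macrophage library.

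Levels of different members were compared per kilobase of exon, in CPM per kb. In Cd163-/- macrophages Cxcl16, Cxcl12 and Cxcl14 made up 94.5% and 90.5% of the members' summed level, against 6.09% and 6.22% in wild-type macrophages, where the 4 neutrophil-directed genes made up 87.4% and 76.5%. The summed level of Cxcl12, Cxcl14 and Cxcl16 was 59.0 and 58.1 CPM per kb in Cd163-/- macrophages and 60.4 and 69.3 CPM per kb in wild-type macrophages. That of the 4 neutrophil-directed genes was 2.74 and 5.41 CPM per kb in Cd163-/- macrophages and 867 and 852 CPM per kb in wild-type macrophages. Cxcl16 led in Cd163-/- macrophages with 46.8% to 53.9% of the sum, followed by Cxcl12, Cxcl14 and Cxcl2, whose ranges did not touch, and Cxcl2 overlapped Cxcl1 next below. Cxcl2 led in wild-type macrophages with 42.6% to 57.6%, then Cxcl1, Cxcl5 and Cxcl10, of which neighbours overlapped, then Cxcl16.

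In hearts Cxcl12, Cxcl14 and Cxcl16 made up 87.4%, 80.5% and 77.9% of the summed level per kb after IL-10, against 75.7%, 81.0% and 80.6% after saline. Cxcl12 and Cxcl14 led in that order in both groups, with overlapping ranges after IL-10 and separate ones after saline. Cxcl10 stood at 0.607 ± 0.204 CPM per kb in IL-10 hearts, above only Cxcl2 and Cxcl3, and at 3.71 ± 0.645 CPM per kb in saline hearts (SD, n = 3 each), just below Cxcl16, whose range it overlapped. The 4 neutrophil-directed genes made up 8.16%, 15.7% and 17.2% in IL-10 hearts and 7.67%, 4.43% and 4.98% in saline hearts. Cxcl5 and Cxcl1 stood at 2.62 ± 1.53 and 2.62 ± 1.39 CPM per kb in IL-10 hearts and could not be ranked against each other. Hearts and macrophages differ in tissue, culture and treatment at once and were scaled apart, so levels across them were not tested.

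**Figure D5:**
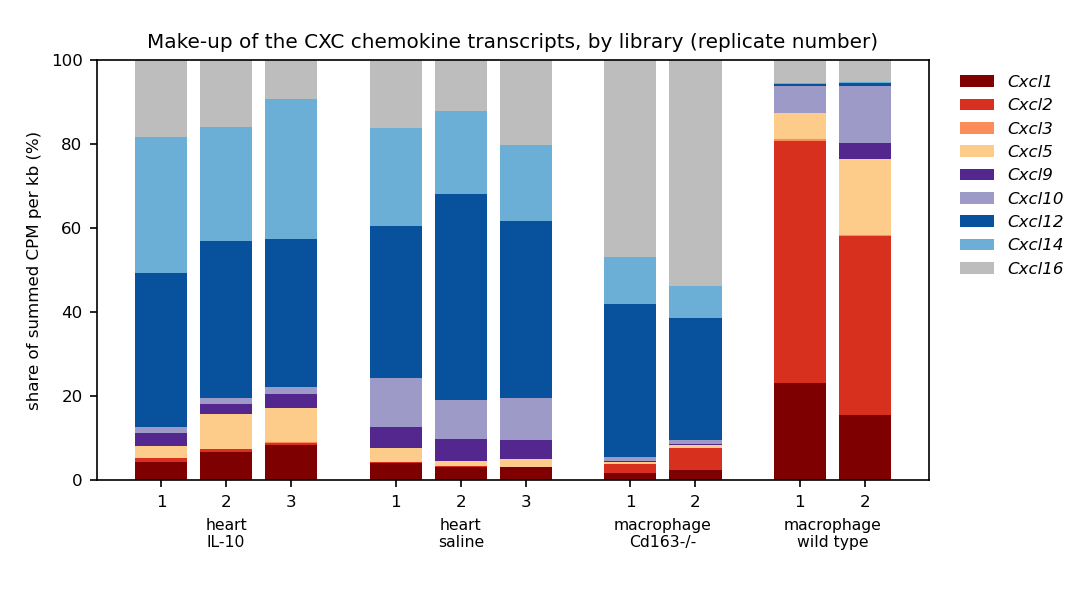
Share of each CXC chemokine gene in the summed CPM per kb of all 9, one bar per library with the replicate number below it, in IL-10 and saline hearts and in Cd163-/- and wild-type macrophages. Cxcl12, Cxcl14 and Cxcl16 fill most of each heart bar and of each Cd163-/- bar, and Cxcl2, Cxcl1, Cxcl5 and Cxcl10 fill most of each wild-type macrophage bar.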

How the data were processed

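Reads of 6 heart and 4 macrophage libraries were made with the NEBNext Ultra RNA kit, which does not mark strand, per the labels' protocols, whose text names livers as the RNA source. Per the submitters' processing notes, the authors aligned with HISAT2 2.2.1 and counted reads with featureCounts to make the deposited counts. Those notes list both GRCm39 and mm10 without saying which the counts used. Coordinates are those of GENCODE M21 on GRCm38, which named 52081 of 55357 genes in each table, and promoter windows are from RefSeq (GRCm38.p6).

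Each table was fitted alone with edgeR 4.0.16 in R 4.3.3 (filterByExpr with a minimum count of 10 and a minimum total of 15, TMM scaling, quasi-likelihood test), IL-10 over saline and Cd163-/- over wild type. Benjamini-Hochberg adjustment ran over every tested gene of a table, and calls needed an adjusted p under 0.05. SE is the absolute log2 fold change over the square root of F. Alternatives were other scalings and filters, DESeq2 1.42.0, limma-voom (limma 3.58.1), mitochondrially encoded genes left out, a replicate block and leaving out each library. The procedure was also run on simulated counts, drawn with the spread shared by genes of like level, so spread particular to a gene was not modelled. No result here rests on that run. The members and gene lists were chosen with earlier results of these data known. Named were the members, the other CXC ligands and receptors, Cd163, and of each pathway list up to 4 genes with the smallest p and the called decay and interferon genes. Of marker lists the most abundant genes and defining markers near 0 were named. Genes named after their values were seen were Il1b, Tnf, Irf1, Ifng, Ifnb1, Tsc22d3 and Fkbp5 in hearts, and the called or near-absent markers. In macrophages they were Il1r1, Tnfrsf1a, Rela, Il17ra, Irf7, Ifng, Tsc22d3, Fkbp5, Cd4, Klrb1c and Gzma, and again the called or near-absent markers. One gene of the interferon signalling list is counted in its totals and not reported here by itself. Replicate libraries differed by more than sampling noise.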

Additional observations from a re-analysis of the deposited data

How the results depend on the processing

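With 1 heart left out, the number of genes called in hearts (edgeR quasi-likelihood) ranged from 897, without IL-10 replicate 2, to 1968, against 1860 with all 6, and was 1012 without saline replicate 1 and 1147 without saline replicate 3. The number of CXC chemokine genes called ranged from 1, without saline replicate 3, to 4, and was 2 without IL-10 replicate 2 or 3. With 1 macrophage library left out, called genes ranged from 734, without Cd163-/- replicate 1, to 3811, against 3663 with all 4, and were 1305 without Cd163-/- replicate 2. Chemokine genes called ranged from 5, without Cd163-/- replicate 1, to 9. With 1 heart left out, the uncalled log2 differences of Cxcl12 ranged from -0.262 to 0.012, positive without IL-10 replicate 1 or saline replicate 2, and those of Cxcl16 from -0.287 to 0.052, positive without IL-10 replicate 3 or saline replicate 3. Other scalings, filters and tools gave 3 or 4 chemokine genes called in hearts and 8 or 9 in macrophages. Higher calls were 50.6% of all calls in hearts but 39.0% with upper-quartile scaling and 35.7% by library size alone, and 49.6% in macrophages but 62.2% and 68.6%. Those scalings moved the median log2 fold change of all macrophage genes to 0.13 and 0.19, from 0.01, and turned no CXC chemokine gene's direction. Same-numbered libraries did not deviate together (r of deviations -0.18 to 0.04 in hearts and -0.11 in macrophages), so the libraries were treated as sharing only a number. With the replicate number as a block, 1523 genes and 3 chemokine genes were called in hearts (Cxcl1 lost, adjusted p = 0.0845) and 2656 and 9 in macrophages (Cxcl9 gained, 0.0227; of the interferon genes Tyk2 and Stat2 were lost, 0.0557 and 0.0506). With the macrophage numbers crossed, chosen after seeing the data, 4595 and 9 were. Depth limits Cxcl2 and Cxcl3 in hearts and Cxcl3, Cxcl9 and Cxcr3 in the lower macrophage group.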

Other observations

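Among 93 other tested genes of the lists, those whose levels followed Cxcl10 most closely from heart to heart, after each group's mean was taken off the log2 CPM, were Tnfrsf1a (Pearson r 0.965), Cxcl14 (0.957) and Tcf21 (0.952), over 6 libraries. For Cxcl1 they were Ackr1 (0.925), Tnfrsf1a (0.922) and Il1r1 (0.917). The points share their libraries and depths, and IL-10 replicate 3 was the highest IL-10 heart for Cxcl1, Cxcl10 and all 5 genes named here, of which Ackr1 had only 2 to 8 counts in the IL-10 hearts. Cxcl10 and Cxcl1 followed each other within groups (0.904) although their group differences had opposite signs.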
